A study of Rattus norvegicus with 32 samples.

Results

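Expression of 10 circadian clock genes (Per1, Per2, Per3, Cry1, Cry2, Arntl, Npas2, Nr1d1, Dbp and Ciart) was examined in RNA-seq libraries of 4 brain regions of rats given methamphetamine (METH) or saline. The genes were taken by name, and 10 of 10 were found among the 28914 gene names of the count files. The rats were adult male Sprague-Dawley animals, and no transgene or deletion is named for any group. METH (10 mg/kg) or saline (Sal) was injected intraperitoneally 4 times, 2 h apart, and tissue was collected a day after the last injection. The nucleus accumbens (NAc), dentate gyrus (DG), cornu ammonis (CA) and subventricular zone (SVZ) were each represented by 4 samples per treatment (32 in total), written as region, treatment and number (such as CA METH 2). The rats lived under a light/dark cycle and were handled in the daytime, and the hour at which each rat was killed is not given in the sources used here. The NAc and SVZ were punched from slices and the DG and CA were scooped out of the posterior brain, so a sample is a mixture of cell types, in which fewer cells of a type and less RNA per cell cannot be told apart. The labels do not say which samples of different regions came from the same rat, so p-values measure the spread between these samples.

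The molecular clock is a feedback loop of transcription that runs in most cells of the body with a period of about a day. Arntl (also called Bmal1) pairs with Clock or with its close relative Npas2, and the pair activates genes that carry E-boxes, among them Per1, Per2, Per3, Cry1, Cry2, Nr1d1, Dbp and Ciart. The Per and Cry proteins and Ciart repress that pair, Nr1d1 (REV-ERB alpha) represses Arntl, and Dbp activates genes with D-boxes, Per genes included. In a tissue whose cells share a phase, Arntl and Npas2 are known to peak at about the opposite time of day from Dbp and Nr1d1. In rat brain, outside the master clock of the suprachiasmatic nucleus, Per1 and Per2 are also known to respond to neuronal activity and to glucocorticoids.

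On the rn6 genome, the activators Arntl and Npas2 lie at chr1:178039063-178137465 and chr9:45901741-46081880, both on the + strand. The Per genes lie at chr10:55687050-55695994 (Per1, + strand), chr9:98555169-98597359 (Per2, − strand) and chr5:168086998-168123395 (Per3, − strand). The Cry genes lie at chr7:24534615-24634097 (Cry1, + strand) and chr3:81314149-81344110 (Cry2, − strand). Ciart lies at chr2:197987705-197991574 (− strand), Nr1d1 at chr10:86683875-86690815 (− strand) and Dbp at chr1:101687855-101692846 (+ strand). Exons of Nr1d1 share bases with exons of Thra on the opposite strand, and the authors counted reads without regard to strand, so the level of Nr1d1 is less certain than that of the other 9 genes, whose exons overlapped no other gene.

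The bases before the start of transcription were searched for the motifs that these factors are known to bind. A RefSeq window of 250 bases before the start (GRCr8 build) was found for 9 of the 10 genes (all but Cry1). The windows of Ciart, Dbp, Per2, Nr1d1 and Arntl, chosen to stand for the repressors, the output and the loop of Nr1d1 and Arntl, are printed from 5′ to 3′, with matches of 5 motifs in capitals. The motifs, read on both strands, were the E-box CACGTG, a variant of it, CACGTT, the D-box TTATGTAA or TTACGTAA, the half-site of REV-ERB and ROR receptors AGGTCA, and the cAMP response element TGACGTCA. Ciart (chr2:186112247-186112496, − strand), Dbp (chr1:105312006-105312255, + strand), Per2 (chr9:99496994-99497243, − strand), the second of 2 windows of Nr1d1 (chr10:84229455-84229704, − strand) and Arntl (chr1:176766078-176766327, + strand) follow.
Ciart: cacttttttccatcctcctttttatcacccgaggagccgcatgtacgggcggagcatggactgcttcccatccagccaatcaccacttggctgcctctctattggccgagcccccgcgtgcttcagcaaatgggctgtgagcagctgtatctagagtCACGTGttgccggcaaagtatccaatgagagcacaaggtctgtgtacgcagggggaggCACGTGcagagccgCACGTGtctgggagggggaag
Dbp: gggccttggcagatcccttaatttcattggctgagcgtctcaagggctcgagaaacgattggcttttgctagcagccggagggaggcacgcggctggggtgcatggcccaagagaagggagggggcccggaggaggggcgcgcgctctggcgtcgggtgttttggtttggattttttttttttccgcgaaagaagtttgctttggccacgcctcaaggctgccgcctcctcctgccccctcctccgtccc
Per2: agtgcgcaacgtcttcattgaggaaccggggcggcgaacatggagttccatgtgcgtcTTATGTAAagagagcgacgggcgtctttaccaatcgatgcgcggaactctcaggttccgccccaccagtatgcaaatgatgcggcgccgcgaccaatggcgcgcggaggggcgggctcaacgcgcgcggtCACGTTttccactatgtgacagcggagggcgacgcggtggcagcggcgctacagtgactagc
Nr1d1: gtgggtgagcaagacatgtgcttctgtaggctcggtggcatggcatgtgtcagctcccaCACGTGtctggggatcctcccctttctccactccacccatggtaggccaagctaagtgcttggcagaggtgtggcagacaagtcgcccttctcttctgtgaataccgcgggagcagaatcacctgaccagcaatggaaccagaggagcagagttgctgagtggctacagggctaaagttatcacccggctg
Arntl: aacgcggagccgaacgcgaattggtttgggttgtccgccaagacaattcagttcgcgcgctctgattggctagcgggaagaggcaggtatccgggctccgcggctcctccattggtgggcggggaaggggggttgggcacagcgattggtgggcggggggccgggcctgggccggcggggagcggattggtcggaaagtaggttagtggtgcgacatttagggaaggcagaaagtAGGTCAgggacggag

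The Ciart window held 3 E-boxes, which began 93, 35 and 21 bases before the start. The Per2 window held a CACGTT 62 bases and a D-box 192 bases before the start, the second Nr1d1 window an E-box 191 bases before it, and the Arntl window an AGGTCA 15 bases before it. Of the windows not printed, the first of Nr1d1 held a CACGTT 174 bases and that of Cry2 one 212 bases before the start. No match was found in the windows of Dbp, Per1, Per3 and Npas2, which says only that these letters are not in these bases. Among 33469 rat windows of the same length, CACGTG was found in 5.59%, CACGTT in 4.07%, the D-box in 0.932%, AGGTCA in 14.1% and TGACGTCA in 1.59%.

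Total counts per sample lay between 11094002 and 21869773 (median 14533166.5), and a clock gene had between 75 counts (the lowest of Ciart) and 5636 (the highest of Dbp) in a library. Each library carries a number in its file header, and the treatment that a number goes with differed between regions for 4 libraries. In the NAc and CA, saline samples 1 and 2 carried numbers 14 and 15 and METH samples 1 and 2 carried 20 and 21, while in the DG the samples labelled Sal 1 and 2 carried 20 and 21 and those labelled METH 1 and 2 carried 14 and 15. Usp9y, a gene of the Y chromosome, had 0 counts in the 6 libraries numbered 20 or 21 and 8 to 15 counts in the 3 libraries numbered 15. For number 14 the libraries differed, with 0 counts in NAc Sal 1, 1 in CA Sal 1 and 9 in DG METH 1. Counts of 0 or 1 were not particular to numbers 20 and 21. They were also found in the libraries numbered 23 and in the 4 SVZ METH libraries, against 21 to 50 in SVZ Sal. The labels were kept, and the main results of the DG are also given without DG samples 1 and 2 of both treatments. The 4 DG samples then left were uneven in markers of other tissue, since DG Sal 3 had 2153 CPM of spiny-neuron markers (the other DG Sal samples 301 to 360) and DG Sal 4 and METH 3 had 2157 and 6383 CPM of choroid plexus markers (the other DG samples 2.04 to 188.6). The part of these in the DG values was not tested. The 4 SVZ METH libraries carried only 2 numbers, 1669 and 1670, and so may not be 4 rats. Libraries of 1 number were not the most alike. The chi-square per gene between counts was 133.4 for METH 1 and 2 and 114.7 for METH 3 and 4, against 16.4 for METH 2 and 4. The headers mark SVZ Sal 1, Sal 2, METH 2 and METH 4 as extra, which cuts across the numbers. Summed markers of NAc spiny neurons reached 1837 to 9392 CPM (counts scaled to library size) in NAc Sal and 347 to 4317 in NAc METH, where METH 3 was lowest and also had the most oligodendrocyte markers of that group (13699 CPM against 6553 to 7682). Dentate granule markers (299 to 468 CPM in DG Sal, 320 to 808 in CA Sal) were not higher in the DG than in the CA, and thalamic markers were uneven in the SVZ (168 to 2830 CPM).

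Dbp was the most abundant of the clock genes, and Cry2 varied least. Per kilobase of gene model and over the 32 samples (mean and SD), Dbp had 89.5 ± 31.7 CPM per kb, followed by Cry2 with 31.0 ± 2.83 and Nr1d1 with 30.8 ± 9.92. Per1 had 20.6 ± 4.84 and Npas2 19.5 ± 7.49 CPM per kb. Per3 had 11.1 ± 3.49, Per2 10.6 ± 3.02 and Arntl 10.2 ± 1.88, and the lowest were Ciart with 6.17 ± 2.32 and Cry1 with 5.95 ± 2.09 CPM per kb. The neighbours Cry2 and Nr1d1, Per1 and Npas2, the trio of Per3, Per2 and Arntl, and the pair of Ciart and Cry1 differed by less than their spread over samples. The highest sample exceeded the lowest 7.03-fold for Npas2 (19.5 to 137.5 CPM), 4.09-fold for Dbp (66.3 to 271.4 CPM) and 3.54-fold for Ciart (6.17 to 21.9 CPM), against 1.603-fold for Cry2 (93.1 to 149.2 CPM). Arntl, the partner of Npas2, spanned 2.46-fold, and the other 5 genes spanned 2.92-fold to 3.43-fold.

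**Figure D1:**
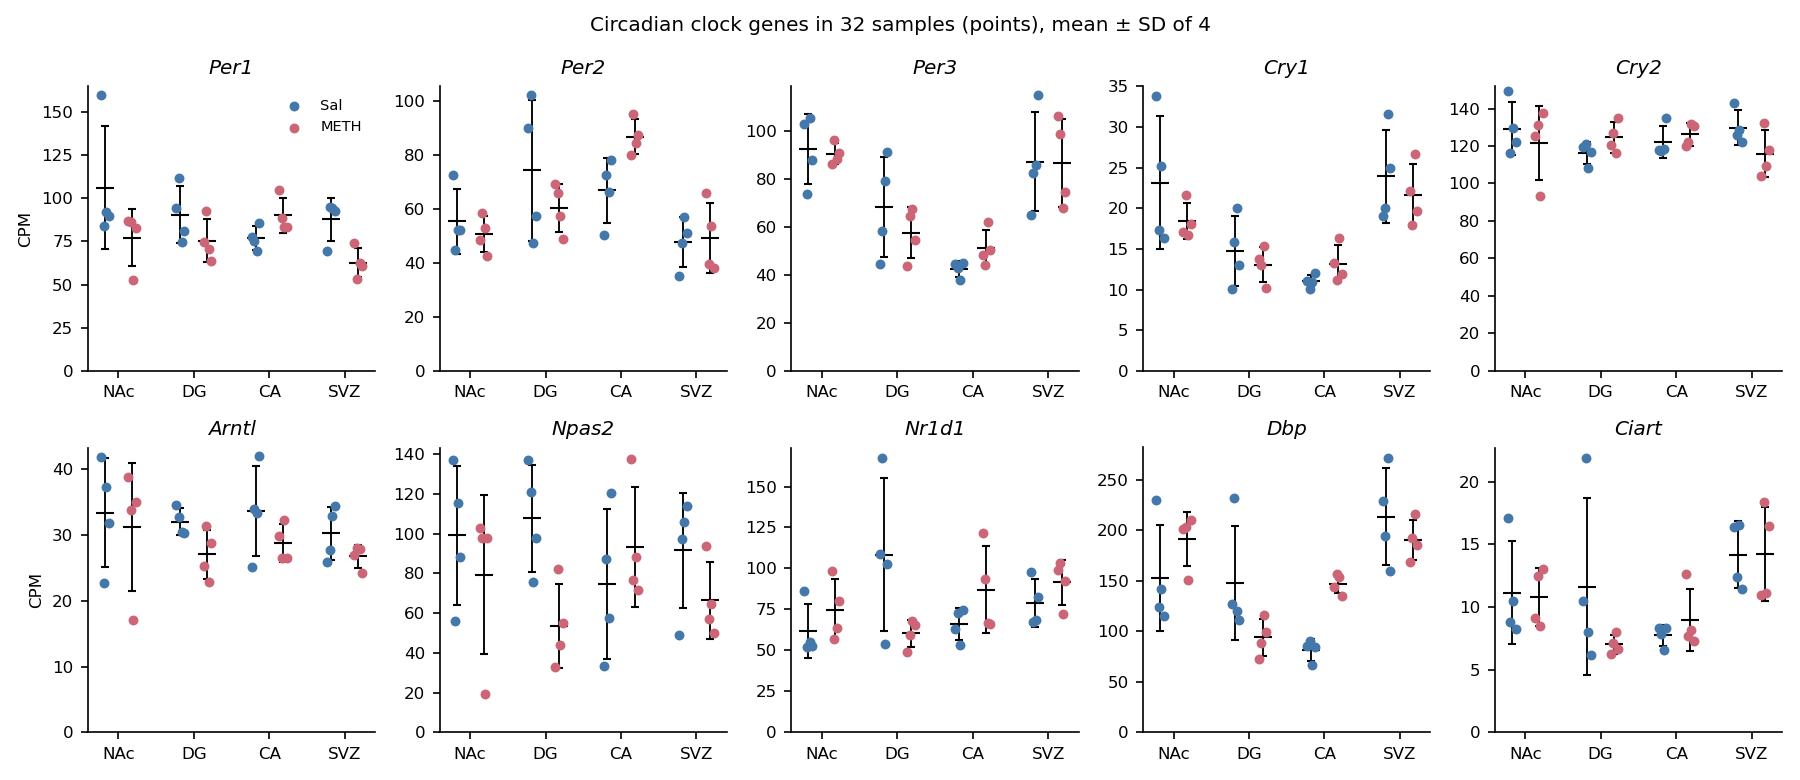
Level of each clock gene (y axis, CPM, starting at 0) in the 4 saline and 4 METH samples of each region (points), with the mean and SD as bars. The CA METH samples of Dbp (135.3 to 156.2 CPM) all lie above the CA saline samples (66.3 to 90.7 CPM), and Cry2 stays between 93.1 and 149.2 CPM in all 32 samples.

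Among saline samples, Dbp, Per3 and Cry1 were lower in the CA than in the SVZ and NAc. Dbp had 85.0, 90.7, 66.3 and 84.5 CPM in CA Sal 1 to 4, against 228.8, 194.4, 271.4 and 159.2 in the SVZ and 230.0, 124.2, 141.5 and 115.5 in the NAc. All 4 CA samples were below every saline sample of the other regions. The share of all genes that separated saline regions in this way was not computed, here or for Per3 and Cry1 below. Between the CA and the SVZ, Dbp differed by a log2 fold change of −1.39 ± 0.26 (SE), with an FDR (Benjamini-Hochberg adjusted p of edgeR's quasi-likelihood test over all genes) of 0.00913, the one clock gene past an FDR of 0.01 with a fold change over 1.5. This call was used throughout, except that tests of any difference among regions, which give no single fold change, used the FDR alone. Between the CA and the SVZ the call held for 1.28% of all genes. The call was close to its threshold, since it was lost with TMM normalization (FDR 0.0107), without the filter on low counts (0.0137) and with the replicate block. It was also lost on leaving out any CA or SVZ sample or NAc Sal 2, 3 or 4 (FDR up to 0.0349), while the log2 fold change stayed between −1.50 and −1.25.

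Per3, which has a smaller role in the feedback loop than Per1 and Per2, had 37.8 to 44.8 CPM in CA Sal, 65.1 to 114.9 in SVZ Sal and 73.8 to 105.5 in NAc Sal, so that the CA did not overlap with either. The repressor Cry1 had 10.1 to 12.0 CPM in CA Sal, 19.1 to 31.6 in SVZ Sal and 16.3 to 33.9 in NAc Sal, again without overlap. Against the SVZ, the CA differed by −1.04 ± 0.21 in Per3 (FDR 0.0111) and by −1.11 ± 0.25 in Cry1 (FDR 0.0154) on the log2 scale. Ciart differed by −0.87 ± 0.33 (FDR 0.0897), and 4 of the 10 genes were at an unadjusted p under 0.05 in this comparison, against 31.6% of all genes. In the NAc against the CA, Per3 (1.12, FDR 0.0298), Cry1 (1.06, FDR 0.0340), Dbp (0.90, FDR 0.0584) and Per1 (0.47, FDR 0.157) were at an unadjusted p under 0.05, 4 of 10 against 24.1% of all genes.

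In the test of any difference among the 4 regions, Per3 (FDR 0.0277), Dbp (0.0359), Cry1 (0.0381) and Nr1d1 (0.154) were at an unadjusted p under 0.05, against 26.7% of all genes, and 0 clock genes and 0% of all genes were called. DESeq2 called Per3, Dbp and Cry1, and without DG Sal 1 and 2 edgeR called Per3 (FDR 0.00792). Nr1d1 had its highest saline levels in the DG, where samples 1 to 4 had 108.6, 167.7, 53.9 and 103.0 CPM. DG Sal 1 and 2 are the samples whose library numbers were those of METH samples in the NAc and CA, and without them the FDR of Nr1d1 was 0.525 and that of Ciart 0.0566.

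The METH comparison asks which clock genes differ a day after a METH binge. In no region was a clock gene called, and the share of all genes called was 0% in each region. At an unadjusted p under 0.05, 0 of 10 clock genes differed in the NAc (3.39% of all genes did). In the DG 3 were lower (6.42% of all genes), in the CA 4 were higher (4.37%) and in the SVZ 1 was lower (1.39%). The fitted difference was below 0 for 9 of 10 clock genes in the DG and above 0 for 9 of 10 in the CA, the exceptions being Cry2 in the DG and Arntl in the CA. The median log2 fold change of the 10 genes was −0.08 in the NAc, −0.28 in the DG, 0.26 in the CA and −0.15 in the SVZ, and that of all genes 0.03, −0.01, 0.01 and 0.02. Without DG samples 1 and 2 of both treatments, 7 of 10 clock genes lay below 0 in the DG, with a median of −0.23 against −0.03 for all genes. Summed astrocyte markers also differed between treatments, without overlap in the NAc (3353 to 3670 CPM in saline, 3887 to 5425 in METH) and the DG (3037 to 3838 and 4236 to 4471), and with overlap in the CA (3404 to 4366 and 3977 to 4965). Their part in the levels of the clock genes was not tested.

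**Figure D2:**
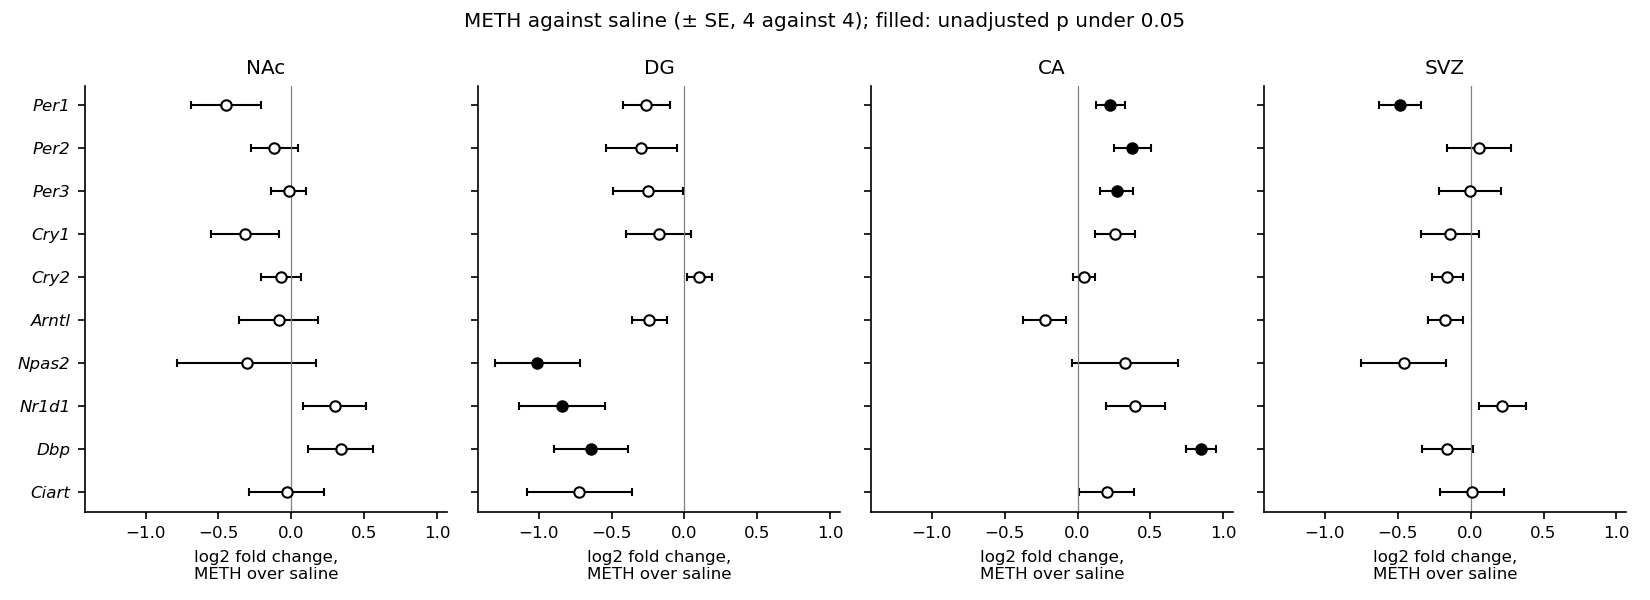
Log2 fold change of METH over saline (x axis) with its SE for each clock gene (rows) in the 4 regions, filled where the unadjusted p is under 0.05. Filled points lie below 0 in the DG (Npas2, Nr1d1, Dbp) and SVZ (Per1) and above 0 in the CA (Per1, Per2, Per3, Dbp), and none passed an FDR of 0.01.

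Of the activators, Npas2 had the largest difference in the DG. It had 136.9, 121.0, 75.6 and 97.8 CPM in DG Sal 1 to 4 and 33.0, 82.0, 44.0 and 54.8 CPM in DG METH 1 to 4. The METH samples were lower except that METH 2 was above Sal 3. The log2 fold change was −1.01 ± 0.29 (SE, FDR 0.236), and it was −0.82 (FDR 0.731) without DG samples 1 and 2 of both treatments, whose library numbers were crossed. With the sequencing run as a covariate, inferred from how the header names of the libraries begin, it was −0.40. Only the first run held DG samples of both treatments. That value therefore compared DG Sal 3 with DG METH 1 and 2, whose numbers were crossed. Npas2 spread widely within other groups too, from 33.5 to 120.7 CPM in CA Sal and from 19.5 to 102.7 CPM in NAc METH, where METH 3 was far below the other 3 samples. Arntl, the obligate partner in the activating pair, was at an unadjusted p under 0.05 in no region. Its group means lay between 26.7 ± 1.79 CPM (SVZ METH) and 33.6 ± 6.88 CPM (CA Sal).

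Among the Per genes, which repress their own activators, Per2 separated in the CA and Per1 was lower in the SVZ. Per2 had 50.4, 72.6, 66.3 and 78.0 CPM in CA Sal and 80.1, 95.3, 84.3 and 87.2 CPM in CA METH. All 4 METH samples were above all 4 saline samples, which was also true of Dbp and of no other clock gene in any region, and of 2.56% of all genes in the CA. The log2 fold change of Per2 in the CA was 0.38 ± 0.13 (FDR 0.669), and those of Per3 and Per1 there were 0.27 ± 0.11 and 0.23 ± 0.10 (both FDR 0.688). In the DG, Per2 had 90.1 and 102.1 CPM in Sal 1 and 2 but 47.3 and 57.5 in Sal 3 and 4, against 48.9 to 69.1 CPM in METH. Its log2 fold change of −0.30 in the DG became 0.017 without samples 1 and 2 of both treatments. With the sequencing run as a covariate it was 0.51, a value that compared Sal 3 with METH 1 and 2 alone. The direction of Per2 in the DG therefore rested on which samples were compared.

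Per1, which is induced fastest of the Per genes by neuronal activity, had 69.4, 94.7, 94.5 and 92.4 CPM in SVZ Sal and 73.8, 53.4, 62.3 and 60.8 CPM in SVZ METH. The groups overlapped only through Sal 1, which was below METH 1. The log2 fold change was −0.48 ± 0.14 (FDR 0.979), it was −0.51 when the libraries of 1 number were summed, and it was −0.46 without Sal 1, METH 2 and METH 4, the SVZ samples with the most thalamic markers (1699 to 2830 CPM). Spiny-neuron markers summed to 361 (Sal 1) to 6688 CPM in SVZ Sal and 257 (METH 2) to 3445 in SVZ METH, and 0 of 10 had a log2 fold change above 0 (median −1.25). Oligodendrocyte markers summed to 4250 to 20349 and 9506 to 29701 CPM, and 10 of 10 were above 0 (median 0.83), with 0 of either list at an unadjusted p under 0.05. In the same comparison 5 of 10 immediate early genes were lower at an unadjusted p under 0.05 (median log2 fold change of the list −1.26), and among 10 glucocorticoid-responsive genes 1 was higher and 1 lower (median −0.20). The part of these in the level of Per1 was not tested. The immediate early list had 0 genes higher and 1 lower in the NAc, 0 and 3 in the DG and 0 and 0 in the CA, and the glucocorticoid list 1 and 0, 1 and 0, and 0 and 1. Averaged over the 4 regions, Per1 was also the one clock gene at an unadjusted p under 0.05 (−0.25 ± 0.09, FDR 0.544), against 7.83% of all genes, and 0% of genes were called. Without the SVZ that average was −0.17, and no clock gene was at an unadjusted p under 0.05. The fitted difference of Per1 was below 0 in the NAc too, but it did not reach that p there. Per1 had 159.7, 83.7, 91.8 and 89.7 CPM in NAc saline and 86.6, 86.5, 52.6 and 82.9 CPM in NAc METH. Apart from Sal 1 and METH 3, the NAc groups overlapped (83.7 to 91.8 CPM in saline, 82.9 to 86.6 in METH). Leaving out 1 NAc sample gave log2 fold changes of Per1 from −0.55 to −0.19, and the other alternatives gave −0.48 to −0.06. In the CA Per1 was higher with METH.

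The Cry genes and Ciart, the other repressors, were at an unadjusted p under 0.05 in no region. Cry2 had group means between 115.9 ± 12.5 CPM (SVZ METH) and 129.8 ± 9.29 CPM (SVZ Sal). Cry1 had its lowest mean in CA Sal (11.1 ± 0.773 CPM) and its highest in SVZ Sal (23.9 ± 5.73 CPM). Ciart had 10.5, 21.9, 8.01 and 6.17 CPM in DG Sal and 6.27, 7.15, 7.98 and 6.66 CPM in DG METH, and Sal 2 was far above all other DG samples. Its log2 fold change in the DG was −0.72 ± 0.36 (FDR 0.454) and became 0.042 without samples 1 and 2 of both treatments.

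Nr1d1, the repressor of Arntl, had 108.6, 167.7, 53.9 and 103.0 CPM in DG Sal and 48.9, 59.1, 68.0 and 65.5 CPM in DG METH. Of the saline samples, Sal 3 lay within the range of the METH samples. The log2 fold change was −0.84 ± 0.30 (FDR 0.300), and it was −0.24 without samples 1 and 2 of both treatments. With the sequencing run as a covariate it was −0.00, which again compared Sal 3 with METH 1 and 2 alone. In the CA, Nr1d1 had 62.9, 72.9, 53.6 and 74.8 CPM in saline and 121.9, 93.6, 66.9 and 66.2 CPM in METH, where METH 1 and 2 were above all saline samples and METH 3 and 4 were not. METH 1 and 2 of the CA carried library numbers 20 and 21, as did DG Sal 1 and 2, the DG samples with the most Nr1d1 along with Sal 4. All of these libraries, DG Sal 4 included, were of the third inferred run, as was CA Sal 4 (74.8 CPM). The NAc samples with numbers 20 and 21, METH 1 and 2, had 98.3 and 57.1 CPM, the highest and the lowest of NAc METH. They were also of the third run, as were NAc Sal 3 and 4 (55.2 and 52.7 CPM). The part of the number or the run in the level of Nr1d1 was not tested.

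Dbp, the output of the clock, gave the largest difference relative to its error. It had 85.0, 90.7, 66.3 and 84.5 CPM in CA Sal and 143.4, 156.2, 153.5 and 135.3 CPM in CA METH, a mean of 81.6 ± 10.6 against 147.1 ± 9.61 CPM (SD, 4 samples each). The groups did not overlap, and the gap between them was larger than the range within either. The log2 fold change was 0.85 ± 0.10 (SE), with an FDR of 0.0887 in edgeR, which is above 0.01, and DESeq2 called it (0.84, FDR 5.66e-09). Leaving out 1 sample gave log2 fold changes from 0.76 to 0.90 (FDR 0.220 to 0.463), and the other alternatives gave 0.84 to 0.97 (FDR 5.66e-09 to 1.00). Sequencing runs, inferred here from how the header names of the libraries begin, were unevenly spread over the treatments. The headers mark CA Sal 1 and 2 as merged and no METH library so, which leaves these 2 saline samples without a METH sample of their own run. The paper states 2 sequencing batches, and how these match the inferred runs was not known. Within the second run Dbp had 66.3 CPM in Sal 3 and 153.5 and 135.3 CPM in METH 3 and 4, and within the third run it had 84.5 CPM in Sal 4 and 143.4 and 156.2 CPM in METH 1 and 2.

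In the DG the difference in Dbp had the opposite sign. Samples labelled DG Sal had 127.1, 231.5, 119.7 and 111.2 CPM and those labelled DG METH had 72.7, 88.8, 115.8 and 99.4 CPM, so that Sal 2 stood apart and METH 3 overlapped with Sal 4. The log2 fold change was −0.64 ± 0.25 (FDR 0.347), and it was −0.11 without samples 1 and 2 of both treatments. Only the first run held DG samples of both treatments, with 119.7 CPM in Sal 3 against 72.7 and 88.8 CPM in METH 1 and 2. In the NAc Dbp had 230.0, 124.2, 141.5 and 115.5 CPM in saline and 200.6, 203.1, 151.1 and 210.1 CPM in METH, where 3 of 4 saline samples were below all METH samples and Sal 1 was above them. The SVZ samples overlapped (159.2 to 271.4 CPM in saline, 168.1 to 216.0 in METH).

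**Figure D3:**
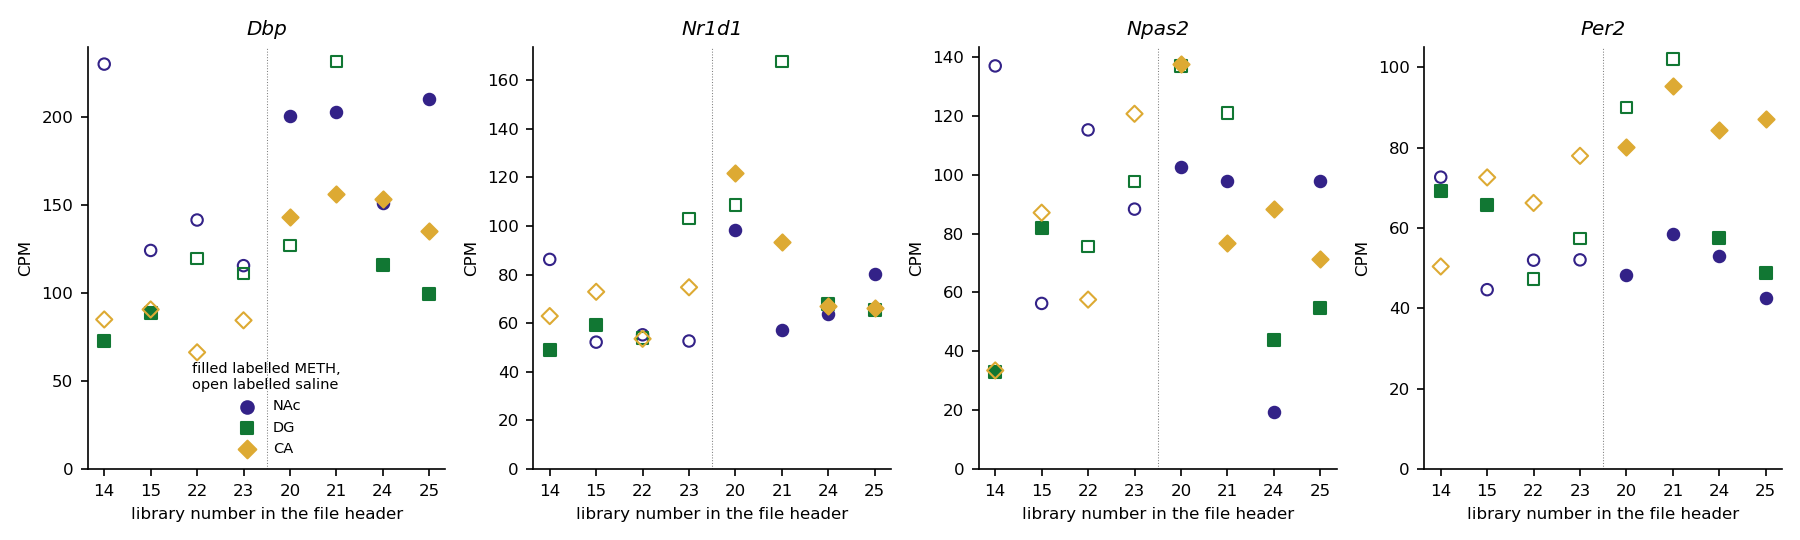
CPM (y axis, from 0) of Dbp, Nr1d1, Npas2 and Per2 by the library number in the file header (x axis), for the NAc, DG and CA, open where labelled saline and filled where labelled METH. Left of the dotted line are numbers that the NAc and CA labels give to saline and right of it those given to METH, and the 4 DG samples numbered 14, 15, 20 and 21 lie on the other side from their label.

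The METH effect on Dbp differed between the DG and CA. The difference of the 2 log2 fold changes (DG minus CA) was −1.50 ± 0.30 (FDR 0.0408), that of Nr1d1 −1.24 ± 0.35 (FDR 0.108), of Npas2 −1.34 ± 0.58 (FDR 0.316), of Ciart −0.93 ± 0.41 (FDR 0.324) and of Per2 −0.68 ± 0.30 (FDR 0.322). These 5 genes were at an unadjusted p under 0.05 with a lower effect in the DG, as were 7.02% of all genes, and 0.0124% of all genes were called. No clock gene passed an FDR of 0.01. Without DG samples 1 and 2 of both treatments the difference was −0.95 for Dbp (FDR 0.168), −0.63 for Nr1d1 (0.548), −1.13 for Npas2 (0.563), −0.16 for Ciart (0.924) and −0.35 for Per2 (0.712). In the test of any difference of the effect among the 4 regions, Dbp (FDR 0.213), Nr1d1 (0.388) and Per1 (0.602) were at an unadjusted p under 0.05, against 7.74% of all genes, with 0 clock genes and 0% of all genes called. Without the crossed DG samples, Dbp (FDR 0.327) and Per1 (0.689) were at that p, and Nr1d1 was not (0.992). The difference between the DG and CA and the crossed library numbers cannot be told apart for the samples that carry them.

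The other clock genes were taken as a list of 25 (among them Clock, Nr1d2, the Ror receptors, Tef and Hlf, the casein kinases and the ubiquitin ligases of Per and Cry proteins), of which 22 passed the filter on low counts in each region. None was called in any region. In the NAc, Timeless was higher (0.68) and Btrc, part of a ligase that marks Per proteins for degradation, was lower (−0.25) at an unadjusted p under 0.05, 2 of 22 against 3.39% of all genes. In the DG, Hlf, a D-box factor of the same family as Dbp, was lower (−1.29 ± 0.40, FDR 0.263), as were Ppargc1a (−0.44) and the casein kinase Csnk1e (−0.34), and Fbxw11 was higher (0.23), which makes 4 of 22 against 12.8% of all genes. Without DG samples 1 and 2 of both treatments 0 of 22 were at that p (6.72% of all genes were), and Hlf was at −1.08 (FDR 0.739), Ppargc1a at −0.37, Csnk1e at −0.18 and Fbxw11 at 0.15. In the CA, Nr1d2, the paralog of Nr1d1, was higher (0.29) and Tef (−0.31), Btrc (−0.22) and Fbxw11 (−0.19) were lower, 4 of 22 against 7.16% of all genes. Tef belongs to the same family as Dbp and Hlf, and it lay below 0 in the CA where Dbp lay above. In the SVZ Tef was lower (−0.52), 1 of 22 against 2.58% of all genes. Over the 4 regions Tef (−0.24) and Btrc (−0.19 ± 0.05, FDR 0.403) were lower, 2 of 23 against 7.83% of all genes.

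How the clock genes varied together among samples of 1 group was examined over all groups and within each region. Each gene's log2 CPM minus the mean of its group was correlated between genes over the 32 samples, for 45 pairs, with p from 100000 permutations within groups, adjusted over the 45 pairs. Pearson's r was above 0 in 39 of 45 pairs, with a median of 0.337 and a range from −0.152 (Cry1 and Nr1d1) to 0.896 (Arntl and Npas2). An adjusted permutation p under 0.05 was reached by 9 pairs, each with an r above 0. The share of such pairs among all genes was not computed, so these counts have no background beside them. With Arntl, an r above 0.5 was found for 6.76% of all genes and one below −0.5 for 7.02%. Samples of different regions may come from the same rats, and libraries share depth and tissue composition, so the 32 points are not fully independent.

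Arntl and Npas2, the activating pair, were the most alike (r 0.896, Spearman's rho 0.855, raw permutation p 2e-05, adjusted 0.000675). Without the 2 samples farthest from the median of Arntl, r was 0.840. It was 0.979 in the NAc, 0.816 in the DG, 0.872 in the CA and 0.711 in the SVZ, over 8 samples each, and in the NAc the adjusted exact permutation p was 0.0391. Per1 followed both activators (r 0.746 with Npas2, adjusted permutation p 0.000675, and 0.654 with Arntl, adjusted permutation p 0.00936) and its paralog Per2 (r 0.620, adjusted permutation p 0.00936). The output Dbp and the repressor Ciart went together (r 0.779, rho 0.669, adjusted permutation p 0.00135, r 0.616 without the 2 farthest samples). The r of Dbp and Ciart was 0.931 in the NAc, 0.902 in the DG, 0.282 in the CA and 0.489 in the SVZ. The remaining 4 pairs were Cry2 with Arntl (0.673), with Ciart (0.507) and with Dbp (0.490), and Per2 with Npas2 (0.446). Without the 2 farthest samples these were 0.4545, 0.439, 0.346 and 0.435. In the same way r of Per1 was 0.704 with Npas2, 0.493 with Arntl and 0.6855 with Per2. The samples left out for Per1 and for Cry2 were NAc Sal 1 and NAc METH 3. For Cry2 and Dbp the adjusted permutation p of rho was 0.0842.

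Arntl and Dbp, which are known to oscillate in opposite phases, did not have an r below 0. Their r was 0.333 (rho 0.274, adjusted permutation p 0.167), it was 0.197 without the 2 farthest samples, and it was 0.714 in the NAc, 0.010 in the DG, 0.039 in the CA and −0.115 in the SVZ. Arntl and its repressor Nr1d1 had an r of 0.268. Of the 45 pairs, 45 had an r above 0 in the NAc, 31 in the DG, 37 in the CA and 22 in the SVZ (median r 0.611, 0.315, 0.226 and −0.085), and adjusted exact permutation p-values under 0.05 were reached by 8 pairs in the NAc and by 0 in each of the other regions. Over all regions, 3 pairs rather than 9 had an adjusted permutation p under 0.05 without DG samples 1 and 2 of both treatments and 5 without the NAc, so that the number of pairs rested partly on those samples.

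**Figure D4:**
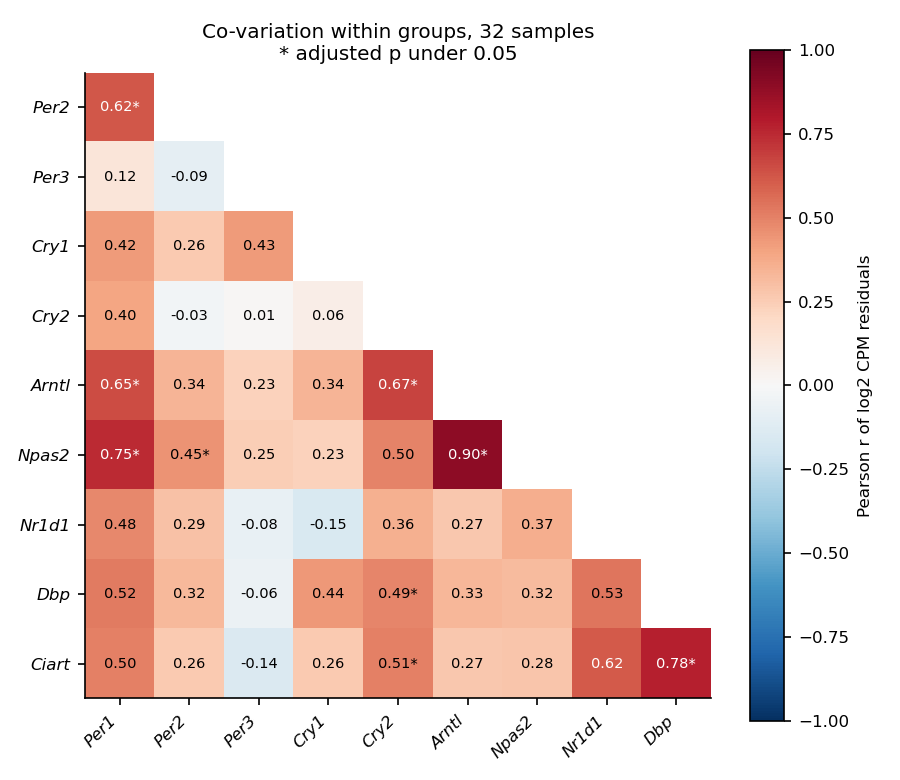
Pearson's r of the residual log2 CPM (value minus group mean) for the 45 pairs of clock genes over 32 samples, on a colour scale from −1 to 1, with a star where the adjusted permutation p is under 0.05. The 9 starred pairs are above 0, the highest at 0.896 for Arntl and Npas2.

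**Figure D5:**
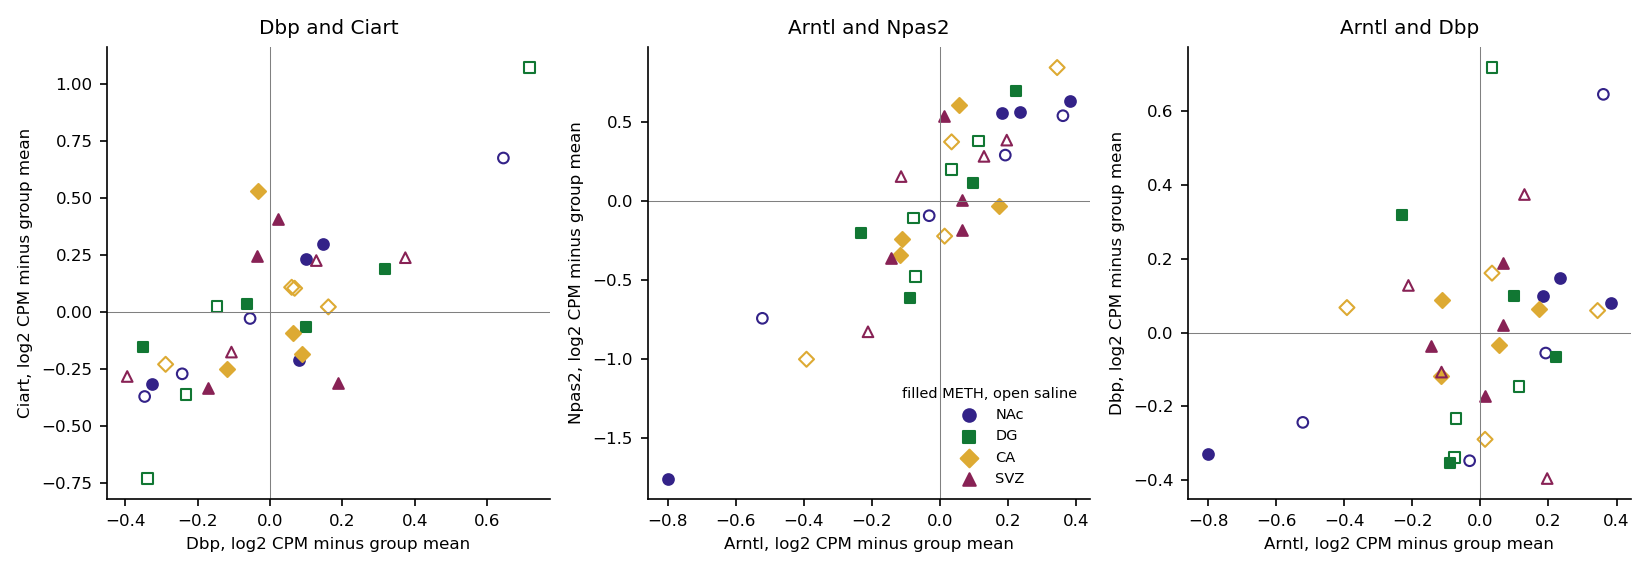
Residual log2 CPM (value minus group mean) of Dbp against Ciart, Arntl against Npas2 and Arntl against Dbp, 1 point per sample, coloured by region, filled for METH and open for saline. The first and second pairs rise together (r 0.779 and 0.896), while the third is spread (r 0.333), and NAc METH 3 is the point at the far lower left of the second panel.

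Among all 16121 other genes compared in the same way, Ciart ranked 1st by its correlation with Dbp, and Npas2 ranked 1st by that with Arntl. The genes outside the list that were most like Dbp over the 32 samples were Slc35a4 (r 0.759), Gga1 (0.742), Htatip2 (0.737), Timm21 (0.735) and Myh10 (0.735), and those most unlike it were Spon1 (−0.810), Lrch3 (−0.786), Tmem135 (−0.784), Mboat1 (−0.779) and Zfp518b (−0.778). Of the other clock genes, Usp2 (r 0.629) ranked 86th and Nr1d2 (0.623) 96th for Dbp. An r above 0.5 with Dbp was found for 413 genes (2.56%). For Arntl the 5 most alike were Cx3cl1 (0.887), Atxn1 (0.880), Plekha5 (0.875), Cttnbp2 (0.865) and Nin (0.864), and 1089 genes (6.76%) had an r above 0.5 with it. These correlations are descriptions of samples that share library depth and composition.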

How the data were processed

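RNA-seq libraries were made by the authors from total RNA depleted of ribosomal RNA, and reads were trimmed with cutadapt 2.7, mapped to rn6 with STAR 2.5.2b and assigned to genes, ignoring strand, with featureCounts 1.6.3. The authors deposited raw counts per gene for each of the 32 samples. An Ensembl annotation is named in the file headers and a UCSC one in the methods. Groups came from the labels.

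The 10 clock genes, the lists and the tests were chosen with earlier results of these data known. In R 4.3.3, counts of each comparison were filtered with filterByExpr, scaled by the upper quartile and tested with edgeR 4.0.16 (quasi-likelihood F-test), with Benjamini-Hochberg adjustment over all genes. Genes were called at an FDR under 0.01 with a fold change over 1.5, or by the FDR alone in tests of any difference among regions. METH was compared with saline within each region (8 samples), and in fits of all 32 samples for the mean over regions and the differences between regions. The 16 saline samples were compared among regions. SE was derived as the absolute log2 fold change over the root of F. CPM was taken over upper-quartile library sizes of the 32 samples, and 1 read was worth 0.0460 to 0.0940 CPM. The genes named are the 10, the 5 most and 5 least like Dbp and the 5 most like Arntl, and those of the other clock genes at an unadjusted p under 0.05. Other lists are given as counts and sums.

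Alternatives were TMM, no low-count filter, other thresholds, a replicate block, 2 RUVr factors, the sequencing run, 1 fit of all 32 samples, DESeq2 1.42.0, limma 3.58.1 (voom with a library-number correlation), leaving out a sample or a region, and leaving out DG samples 1 and 2. Those without these DG samples for the mean over regions, the co-variation, the saline regions and the other clock genes, and the one without 3 SVZ samples, were chosen after seeing the data. The procedure was tested on simulated data. Python 3.11.15 was used for correlations and figures.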

Additional observations from a re-analysis of the deposited data

Results flagged for a closer look

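In each group of 4 samples, the gap of the highest or lowest sample to its nearest neighbour was divided by the range of the group, and 9 of 80 groups of a clock gene had a value above Dixon's 95% critical value for 4 samples, which chance passes in about 1 of 20 groups. The share over all genes was not computed, and the groups are not independent, since the same samples recur. A comparison of 9 of 80 with 1 of 20 therefore says nothing particular to clock genes. Of these 9, 5 were in the NAc. NAc METH 3, the sample with the fewest spiny-neuron markers and the most oligodendrocyte markers of its group, was lowest in Npas2 (19.5 CPM against 97.8 to 102.7, value 0.9408), in Per1 (52.6 against 82.9 to 86.6, value 0.8912) and in Dbp (151.1 against 200.6 to 210.1, value 0.8395). NAc Sal 1, the sample with the most spiny-neuron markers of its group (9392 CPM), was highest in Per1 (159.7 CPM against 83.7 to 91.8, value 0.8935). It was also highest in Nr1d1 (86.2 against 52.2 to 55.2, value 0.9113).

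DG Sal 2, one of the libraries with a crossed number, was highest in Dbp (231.5 CPM against 111.2 to 127.1, value 0.8685). CA Sal 4 was highest in Cry2 (134.8 CPM against 117.2 to 118.4, value 0.9301) and CA METH 1 in Ciart (12.6 against 7.31 to 8.16, value 0.8401). SVZ Sal 1, the SVZ sample with the most thalamic markers (2830 CPM), was lowest in Per1 (69.4 CPM against 92.4 to 94.7, value 0.9118).

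The METH effect on Dbp differed between the DG and the CA by −1.50 on the log2 scale (DG minus CA), with an FDR of 0.0408 in edgeR's test of the difference itself. It was −0.95 (FDR 0.168) without DG samples 1 and 2 of both treatments.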

How the results depend on the processing

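Of 490 refits of clock-gene differences, without leaving out 1 sample, 37 changed sign. Of the 110 of these for differences at an unadjusted p under 0.05, 0 changed sign and 85 stayed under 0.05. On leaving out 1 sample, 112 of 128 refits of such differences stayed under 0.05. These counts include the saline CA against SVZ, whose refits also left out samples of the other regions. No clock gene was called by edgeR in any METH comparison under any alternative with the threshold kept, and DESeq2 called 1, Dbp in the CA. The number of clock genes at an unadjusted p under 0.05 was 0 in the NAc and became 1 with the replicate block, 3 with 2 RUVr factors, 1 in 1 fit of all 32 samples and 0 to 2 on leaving out 1 sample (2 without NAc Sal 1). In the DG it was 3 and became 1 without samples 1 and 2 of both treatments, and 1 to 4 on leaving out 1 sample (1 without DG Sal 2 or DG METH 1). Per2 in the DG turned to 0.51 with the run, where only Sal 3 was compared with METH 1 and 2. Without samples 1 and 2 of both treatments, Per2 in the DG turned to 0.017 and Ciart to 0.042. In the CA it was 4 and became 2 with the replicate block, 2 with the run, 1 in 1 fit of all samples and 2 to 4 on leaving out 1 sample (2 without CA Sal 2 or CA Sal 3). In the SVZ it was 1 and became 0 with the replicate block, 4 with RUVr and 1 to 2 on leaving out 1 sample (2 without SVZ Sal 1), and a run covariate could not be fitted there, as there was 1 run. Over the 4 regions it was 1 and became 3 with RUVr, 2 without the NAc, 3 without the DG, 2 without the CA, 0 without the SVZ and 2 without the crossed DG samples.

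For any difference among saline regions the number called was 0 and became 3 at an FDR under 0.05, 3 with DESeq2 and 1 without DG Sal 1 and 2. Between the saline CA and SVZ it was 1 and became 0 with TMM, without the filter and with the replicate block, 3 at an FDR under 0.05, 3 with DESeq2, 2 without DG Sal 1 and 2, and 0 to 3 on leaving out 1 sample. Of the correlated pairs, 9 became 14 with TMM, 4 with run means removed, 3 without the crossed DG samples, 5 without the NAc and 15 without the SVZ, and r of Arntl and Dbp turned to −0.016 without the NAc. The causes of these changes were not tested, beyond the smaller number of samples where samples were left out. Over all genes, DESeq2 called 3, 183, 10 and 2 genes in the NAc, DG, CA and SVZ, where edgeR called 0.

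Replicate numbers did not pair METH and saline samples. The correlation of the deviations of samples with 1 number was −0.214 to 0.215 in the NAc, −0.169 to 0.330 in the DG, −0.177 to 0.376 in the CA and −0.748 to 0.296 in the SVZ. The least abundant clock gene, Ciart, had 75 counts in its lowest library, which limits its precision.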
